A study of Mus musculus with 6 samples.

Results

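The ErbB family is a group of receptor tyrosine kinases with the ligands that activate them, and 9 of its genes were followed here in sorted mammary basal cells. The genes were found in the files by their symbols alone, although the family itself was picked with earlier results of these data known, and are 9 of the 51826 symbols counted. They comprise 4 receptors (Egfr, Erbb2, Erbb3 and Erbb4) and 5 ligands (Nrg1, Hbegf, Tgfa, Ereg and Btc). All 9 were in the count files, 8 passed the filter on low counts and were tested, and Btc was not tested.

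An ErbB ligand binds the outer part of a receptor, which then pairs with another receptor of the family and passes the signal to the Ras, ERK and PI3-kinase pathways. Egfr binds ligands of the EGF type such as those encoded by Tgfa, Hbegf, Ereg and Btc, while Erbb3 and Erbb4 bind neuregulins such as the product of Nrg1. Erbb2 has no known ligand of its own and works as a partner, and Erbb3 has little kinase activity and signals through its partners. In the mammary gland the family is known for its part in growth of the ducts at puberty and in luminal and alveolar development.

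RNA-seq libraries were made from pools of 2 to 3 mice of strain C57B6/N with the genotype SMAcreERT2/N1ICD, in which a tamoxifen-activated Cre under a smooth muscle actin promoter is joined with a Notch1 intracellular domain allele. Mice received tamoxifen once at postnatal day 21, and cells were taken 72 hours later, at day 24. Cells with GFP (GFPpos) and without it (GFPneg) were sorted from the same 3 pools, which gave 3 pairs and 6 libraries. Both groups carry the same alleles and had the same treatment, and no library came from cells of mice without the allele. The cell fate switch named in the series title is the question behind the contrast.

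Values are CPM, read counts relative to the TMM-adjusted library total, unless another unit is named, and an error after ± is the SD over 3 libraries. GFPneg replicate 1 held 611465 gene counts and the other libraries 9912610 to 16043492. Of its counts, 69.2% lay in 5 abundant noncoding features, against 22.7% to 34.7% in the other libraries. Its TMM factor was 0.501, against 1.05 to 1.22 elsewhere, so its CPM values depend strongly on the scaling. A single read was worth 3.28 CPM in GFPneg replicate 1 and 0.0513 to 0.0911 CPM in the others. In GFPneg replicate 1, 49.8% of the tested genes had 0 counts, and over the tested genes the median log2 ratio of CPM + 1 was 1.34 in pair 1, against -0.03 in pair 2 and 0.05 in pair 3. The fold change of each tested member is therefore also given without this library. As to the label of basal cells, all 10 basal markers were detected, with a summed level of 6504 to 7380 CPM in GFPpos and 8522 to 13883 CPM in GFPneg libraries. All 10 had negative log2 fold changes, GFPpos over GFPneg (median -0.73, smallest edgeR adjusted p = 0.396). In GFPpos cells 7 of them were lower in all 3 pairs, as were 8.07% of all genes tested. Immune markers summed to at most 9.19 CPM, with Adgre1 and Csf1r at 0 counts in every library, while 6 endothelial markers summed to 686 to 2041 CPM. Fibroblast markers summed to 39.7 to 100.2 CPM in GFPpos and 148 to 387 CPM in GFPneg libraries.

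None of the 8 tested genes differed between GFPpos and GFPneg cells in edgeR's quasi-likelihood test (0 higher and 0 lower at a Benjamini-Hochberg adjusted p below 0.05, against 0.0649% of all 13873 genes tested, 0.0577% higher and 0.00721% lower). None passed an unadjusted p of 0.05 either, which 5.26% of the tested genes did. With the replicate number as a block, 0 members passed, against 0.440% of the tested genes (0 members and 4.40% of genes at an unadjusted p below 0.05), and no member passed under any of the 19 alternative settings (smallest adjusted p = 0.310, for Ereg with limma-voom). The median log2 fold change of the 8 genes was -0.22, against 0.15 over all genes tested. No member went the same way in all 3 pairs, which 29.6% of the tested genes did (21.5% higher and 8.07% lower). In pairs 2 and 3 alone, Egfr, Tgfa and Ereg were lower in GFPpos cells of both (29.6% of the tested genes were) and 0 members were higher in both (29.1% were). The 2 groups overlapped for all 8, whereas they did not overlap for 13.2% of the tested genes. In bulk samples, fewer cells of a type and less RNA per cell cannot be told apart.

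**Figure D1:**
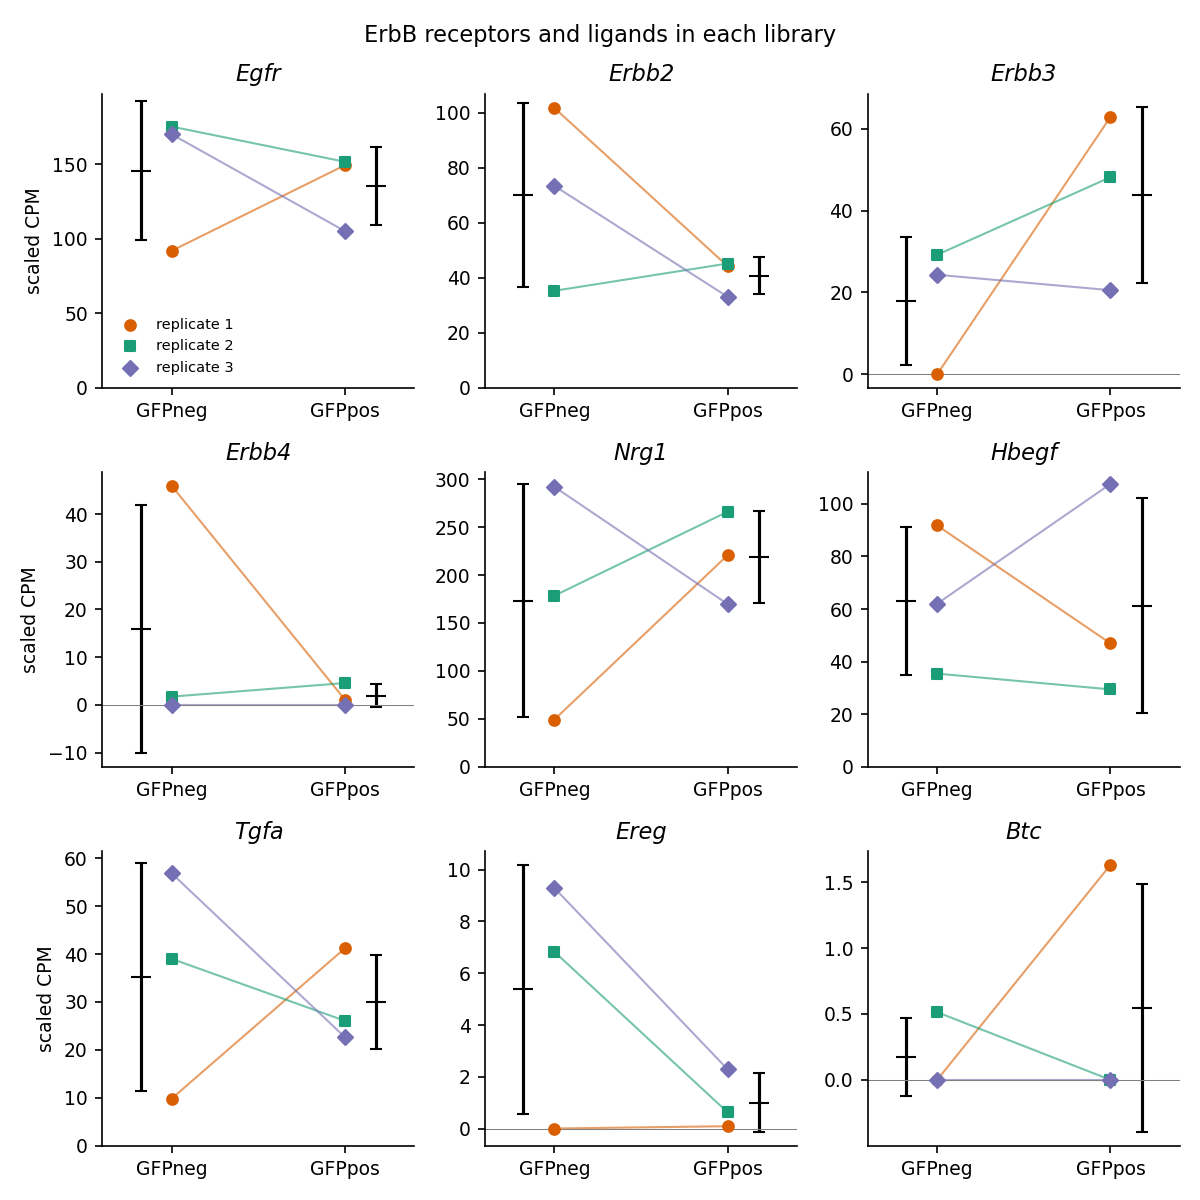
Scaled CPM (linear axes) of the 9 genes in the 6 libraries. Lines join the GFPneg and GFPpos libraries of a replicate, and black bars give the group mean ± SD (n = 3). Lines of different replicates cross for most genes, and Ereg is higher in GFPneg replicates 2 and 3 than in the other 4 libraries.

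The receptors resemble each other in sequence, which matters for assigning reads of a family. The same window of 30 bases in the coding sequence of the kinase is shown for the 4 receptors, with bases shared by all 4 in capitals (16 of 30), from GENCODE M21 transcripts, 5′ to 3′.
Egfr: GTgCAccGtGActTgGCagcCaGgAAtGTa
Erbb2: GTtCAcaGgGAccTaGCtgcCcGaAAcGTg
Erbb3: GTgCAtaGgGAccTtGCgctCcGgAAtGTg
Erbb4: GTtCAtcGgGAtcTgGCagcCcGcAAtGTc
Pairs of receptors matched at 20 to 22 of these 30 bases. Over whole transcripts, the longest exact stretch that any pair of the 9 members shared was 22 bases, between Erbb2 and Erbb4 (tcatggtcaaatgttggatgat). That is shorter than the reads of 75 bases.

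Egfr, the receptor for EGF-type ligands, lies on the plus strand of chromosome 11 (16752203 to 16918158, mm10). It was the receptor with the highest CPM in 5 of the libraries. It stood at 149, 151 and 105 CPM in GFPpos replicates 1, 2 and 3 and at 91.8, 175 and 169.9 CPM in GFPneg replicates 1, 2 and 3. The GFPpos values lay inside the GFPneg range, and the shallow library was the lowest of the 6. The means were 135 ± 26.2 and 146 ± 46.7 CPM, with a log2 fold change of -0.12 (SE 0.42, 95% interval -1.02 to 0.77, edgeR adjusted p = 1.00). Without GFPneg replicate 1 all GFPpos values were below the GFPneg values. Egfr shared this with Ereg among the 8 genes, against 26.2% of the tested genes whose groups did not overlap in either direction and 13.6% that were lower. Its log2 fold change was then -0.33 (adjusted p = 0.863).

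Erbb2, the partner receptor without a ligand of its own, also lies on chromosome 11 (98412470 to 98437716, plus strand). Its level was 44.1, 45.1 and 33.0 CPM in GFPpos and 102, 35.2 and 73.3 CPM in GFPneg replicates 1, 2 and 3. GFPneg replicate 1 was the highest library, on 31 counts, and GFPneg replicate 2 lay among the GFPpos values. The means were 40.8 ± 6.72 and 70.1 ± 33.3 CPM (log2 fold change -0.75, SE 0.54, 95% interval -1.90 to 0.41, edgeR adjusted p = 1.00). Erbb2 was 2.30-fold lower in GFPpos cells in pair 1 (95% exact interval 1.55 to 3.31, counting error only), 1.28-fold higher in pair 2 (1.15 to 1.43) and 2.22-fold lower in pair 3 (2.00 to 2.47). The log2 fold change was -0.39 without GFPneg replicate 1 (edgeR adjusted p = 0.893). With TMM scaling, the differences within pairs were larger than counting error and did not share a direction. The pair 1 ratio also rests on the TMM factors, 0.501 for GFPneg replicate 1 and 1.05 for GFPpos replicate 1. With library size only as the scaling, the log2 fold change over the 6 libraries was -0.35.

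Erbb3, the neuregulin receptor that relies on partners, lies on chromosome 10 (128567523 to 128589652, minus strand). It stood at 62.9, 48.2 and 20.6 CPM in GFPpos and at 0, 29.2 and 24.3 CPM in GFPneg replicates 1, 2 and 3. GFPpos replicate 3 was below GFPneg replicates 2 and 3, and the other GFPpos libraries were above all GFPneg libraries. By counting error alone, the 0 in GFPneg replicate 1 allows a level of up to 9.84 CPM (3 counts). At the mean level of the other GFPneg libraries, 8.16 counts would stand there. Adam10 also had 0 counts in this library, where 20.1 would stand by the same measure, so 9.84 CPM is not a firm limit. The means were 43.9 ± 21.5 and 17.8 ± 15.6 CPM (log2 fold change 1.14, SE 0.80, 95% interval -0.56 to 2.83, edgeR adjusted p = 1.00). Without GFPneg replicate 1 the log2 fold change was 0.73 (adjusted p = 0.759), and with both libraries of replicate 1 left out it was 0.38 (adjusted p = 0.967).

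Erbb3 is also expressed by luminal cells and Schwann cells. Luminal markers (12 genes) summed to 880 to 1260 CPM in GFPpos and 315 to 828 CPM in GFPneg libraries, lowest in GFPneg replicate 1. In GFPneg replicates 2 and 3, Cdh1 and Epcam were on average the largest parts of this sum. Of the 12 genes, 9 had positive and 3 negative log2 fold changes. Their median log2 ratio of CPM + 1 was 1.95, 0.34 and -0.30 in pairs 1, 2 and 3, against 1.34, -0.03 and 0.05 over all genes tested. Schwann cell markers (7 genes) summed to 90.7 to 144 CPM in GFPpos and 169 to 875 CPM in GFPneg libraries, and S100b was at 0 in all but GFPneg replicate 3. The library with the highest Schwann sum, GFPneg replicate 1, held 0 counts of Erbb3. The part of luminal cells in the Erbb3 values was not tested.

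Erbb4, the other neuregulin receptor, lies on chromosome 1 (68032186 to 69108059, minus strand) and was close to the floor. It had 12, 59 and 0 counts in GFPpos and 14, 34 and 0 counts in GFPneg replicates 1, 2 and 3, or 1.09, 4.59 and 0 against 45.9, 1.75 and 0 CPM. Pair 3 had no read of it in either fraction, and the single high value came from the shallow library. The log2 fold change was -2.80 (SE 1.95, 95% interval -6.96 to 1.34, edgeR adjusted p = 1.00). Without GFPneg replicate 1 it turned to 1.10 (adjusted p = 0.972), so that no direction can be given for Erbb4.

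The share of each receptor in the summed receptor level per length does not depend on how libraries are scaled. Levels were divided by the length of the union of exons (CPM per kb) before summing. Erbb3 made up 32.5%, 26.3% and 17.96% in GFPpos and 0%, 17.8% and 12.2% in GFPneg replicates 1, 2 and 3. Its share was higher in GFPpos cells of every pair, by 32.5, 8.48 and 5.76 percentage points, with means of 25.6% ± 7.28 and 10.02% ± 9.12. GFPneg replicates 2 and 3 alone average 15.02%. In pair 3 the Erbb3 level itself was lower in GFPpos cells (3.42 against 4.04 CPM per kb), as were those of Egfr and Erbb2. An exact paired test over 3 pairs cannot go below p = 0.25, so none was run. The Egfr share was 44.5% ± 3.92 in GFPpos and 42.7% ± 15.6 in GFPneg cells, and the Erbb2 share 29.4% ± 3.58 and 43.2% ± 18.7. In GFPneg replicates 2 and 3 alone they averaged 51.0% and 33.7%. Both differed in direction between pairs.

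**Figure D2:**
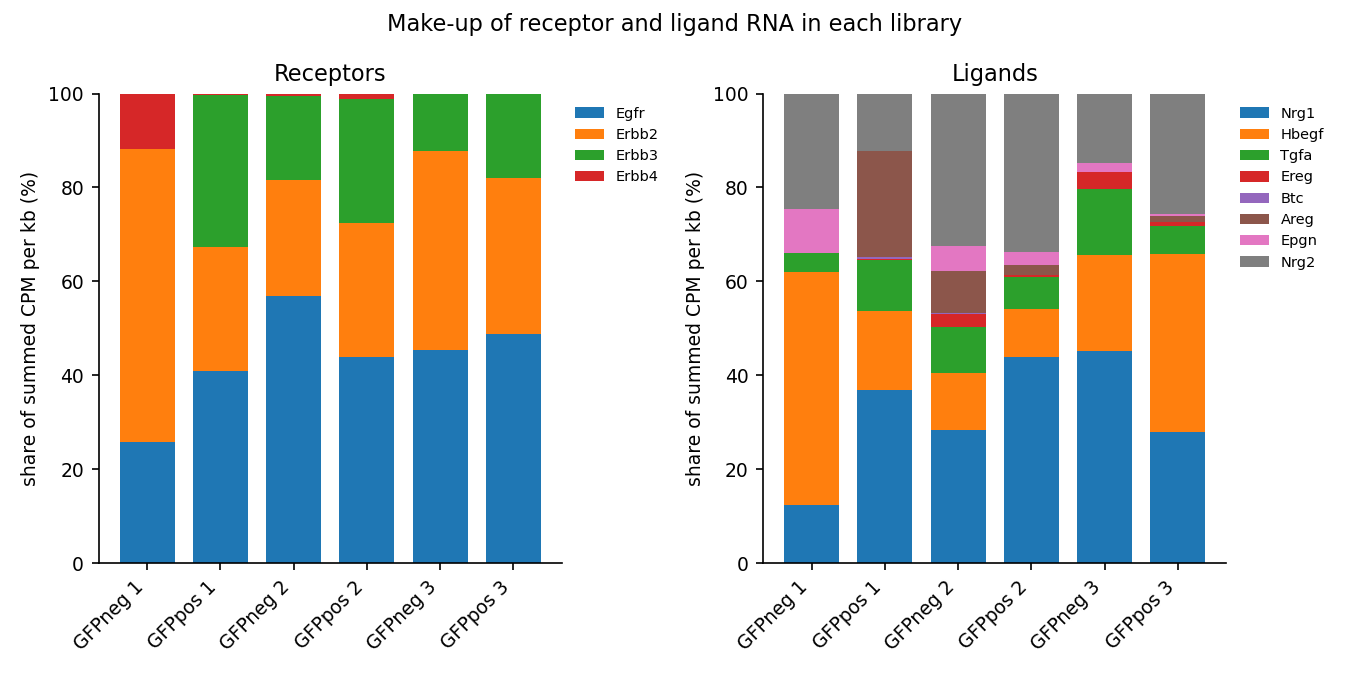
Share of each gene in the summed level per length (CPM per kb, % of the sum) of the receptors and of the ligands, 1 bar per library, with no error bars since each bar is a single library. The Erbb3 part is larger in the GFPpos bar of each replicate, from 17.96% to 32.5%, than in the GFPneg bar, and GFPneg replicate 1 has none.

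Among ligands, Nrg1 encodes neuregulin 1, which binds Erbb3 and Erbb4, and lies on chromosome 8 (31814551 to 32884029, minus strand). Per kb of exon it had the highest CPM of the 9 genes in 4 of the libraries, but this depends on the length used. Per coding length it led the ligands in GFPpos replicate 2 alone, with 41.1% of their sum, and Hbegf or Tgfa led in the other 5 libraries. The level was 221, 266 and 169.6 CPM in GFPpos and 49.2, 178 and 292 CPM in GFPneg replicates 1, 2 and 3. The highest and the lowest library were both GFPneg. The means were 219 ± 48.3 and 173 ± 121 CPM (log2 fold change 0.31, SE 0.51, 95% interval -0.78 to 1.398, edgeR adjusted p = 1.00). Nrg1 was 4.49-fold higher in GFPpos cells in pair 1 (95% exact interval 2.72 to 8.03, counting error only) and 1.49-fold higher in pair 2 (1.42 to 1.56). It was 1.72-fold lower in pair 3 (1.64 to 1.81). Without GFPneg replicate 1 the log2 fold change was -0.08 (adjusted p = 0.988).

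Hbegf encodes heparin-binding EGF-like growth factor, a ligand of Egfr and Erbb4, and lies on chromosome 18 (36504927 to 36515805, minus strand). It stood at 46.9, 29.4 and 108 CPM in GFPpos and at 91.8, 35.4 and 62.0 CPM in GFPneg replicates 1, 2 and 3. The lowest and the highest library were both GFPpos. The means were 61.3 ± 41.03 and 63.1 ± 28.2 CPM (log2 fold change 0.00, SE 0.58, 95% interval -1.24 to 1.24, edgeR adjusted p = 1.00). GFPpos replicate 3, where Hbegf was highest, also had the highest sums of endothelial markers (2041 CPM, against 719 and 779 CPM in the other GFPpos and 686 to 1164 CPM in the GFPneg libraries) and pericyte markers (612 CPM, against 42.6 to 224 CPM elsewhere). Their part in the Hbegf value was not tested. Without GFPpos replicate 3 the log2 fold change was -0.69 (edgeR adjusted p = 1.00), and without GFPneg replicate 1 it was 0.35 (adjusted p = 0.941).

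Tgfa encodes transforming growth factor alpha, a ligand of Egfr, and lies on chromosome 6 (86195223 to 86275719, plus strand). Its level was 41.2, 26.1 and 22.6 CPM in GFPpos and 9.84, 39.0 and 56.8 CPM in GFPneg replicates 1, 2 and 3. The value in GFPneg replicate 1 rests on 3 counts, and the highest library was GFPneg replicate 3. The means were 29.97 ± 9.89 and 35.2 ± 23.7 CPM (log2 fold change -0.31, SE 0.66, 95% interval -1.72 to 1.11, edgeR adjusted p = 1.00). Tgfa was 1.497-fold lower in GFPpos cells in pair 2 (95% exact interval 1.31 to 1.71, counting error only) and 2.51-fold lower in pair 3 (2.22 to 2.85). Without GFPneg replicate 1 its log2 fold change was -0.66 (adjusted p = 0.716).

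Ereg encodes epiregulin, a ligand of Egfr and Erbb4, and lies on chromosome 5 (91074622 to 91093646, plus strand). It had 1, 8 and 44 counts in GFPpos and 0, 133 and 102 counts in GFPneg replicates 1, 2 and 3, which is 0.0906, 0.622 and 2.28 CPM against 0, 6.83 and 9.29 CPM. GFPneg replicates 2 and 3 were above all GFPpos libraries. By counting error alone, the 0 in GFPneg replicate 1 allows up to 9.84 CPM, above every other library. The means were 0.999 ± 1.14 and 5.37 ± 4.81 CPM (log2 fold change -2.57, SE 1.46, 95% interval -5.68 to 0.52, edgeR unadjusted p = 0.0962, adjusted p = 1.00). Ereg was 11.0-fold lower in GFPpos cells in pair 2 (95% exact interval 5.41 to 25.9, counting error only) and 4.07-fold lower in pair 3 (2.83 to 5.93). The log2 fold change was -2.96 without GFPneg replicate 1 (edgeR adjusted p = 0.517). Ereg had the smallest p among the members and a negative fold change in each of the 18 alternative fits that tested it, where the log2 value lay between -4.03 and -2.03.

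Ereg is also expressed by keratinocytes. The markers of differentiating keratinocytes (5 genes, among them Krt1 and Krt10) summed to 1.56 to 8.79 CPM in GFPpos and 177, 118 and 31.2 CPM in GFPneg replicates 1, 2 and 3. The 3 that were tested had negative log2 fold changes (median -4.01). They include the only gene called lower in GFPpos cells over all genes tested (edgeR adjusted p = 0.00637). Ereg itself stood at 0, 6.83 and 9.29 CPM in GFPneg replicates 1, 2 and 3, the reverse order of the keratinocyte sums. The 0 allows up to 9.84 CPM by counting error alone. The part of keratinocytes in the Ereg difference was not tested.

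Btc encodes betacellulin, a ligand of Egfr and Erbb4, and lies on chromosome 5 (91357261 to 91402994, minus strand). It had 18 counts in GFPpos replicate 1, 10 in GFPneg replicate 2 and 0 in the other 4 libraries, or 1.63 and 0.513 CPM. The low-count filter left it out, and with no such filter its log2 fold change was 1.14 (SE 2.81, edgeR adjusted p = 0.941). Ereg and Btc are neighbours of Epgn and Areg, which encode the EGF-type ligands epigen and amphiregulin, within 376 kb.

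**Figure D3:**
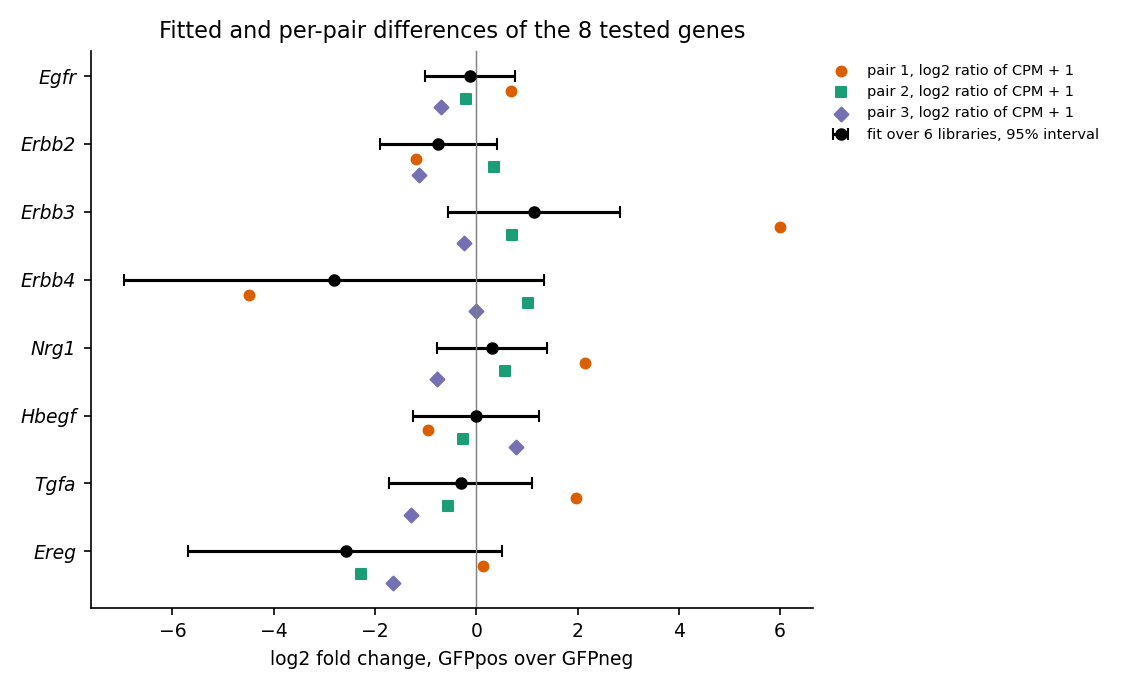
Log2 fold change of the 8 tested genes, GFPpos over GFPneg, from the fit over 6 libraries (black, with 95% interval) and in each pair (coloured, log2 ratio of CPM + 1). Each interval holds 0, and the pair values lie on both sides of 0 for every gene.

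Of the other ligand genes, Areg, Epgn and Nrg2 were tested and none passed (0 of 3 higher, 0 lower, median log2 fold change 0.10). Nrg2, which encodes a second neuregulin, was the most abundant of them with a mean level of 43.9 ± 20.3 (GFPpos) and 40.3 ± 18.9 CPM (GFPneg) (log2 0.10, SE 0.60). Areg, a ligand known for its part in duct growth at puberty, stood at 15.9, 1.56 and 0.934 CPM in GFPpos and 0, 6.67 and 0 CPM in GFPneg replicates 1, 2 and 3 (log2 1.13, SE 1.60). The highest library was GFPpos replicate 1, and without it the log2 fold change was -1.08. Epgn had means of 1.11 ± 1.61 and 4.83 ± 2.40 CPM (log2 -2.05, SE 1.65) and was the tested ligand gene that was lower in GFPpos cells of all 3 pairs, as were 8.07% of all genes tested. In pair 1 the direction of Epgn rests on 0 counts in GFPpos against 2 counts in GFPneg replicate 1. Egf had 2 counts in all and Nrg3 had 0, and Nrg4 reached 1.45 CPM in GFPpos replicate 3.

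Per kb of exon, the order of the 9 genes in GFPpos cells began with Nrg1 (21.1 ± 4.66 CPM per kb), Hbegf (12.7 ± 8.49), Egfr (11.9 ± 2.32), Erbb2 (7.82 ± 1.29), Erbb3 (7.29 ± 3.57) and Tgfa (4.62 ± 1.52). Ereg (0.242 ± 0.277), Erbb4 (0.153 ± 0.194) and Btc (0.120 ± 0.208) were last. Neighbours in this order differed by less than the larger of their SDs, except Egfr against Erbb2 and Tgfa against Ereg. In GFPneg cells Nrg1 (16.7 ± 11.7 CPM per kb), Erbb2 (13.4 ± 6.40), Hbegf (13.1 ± 5.84) and Egfr (12.9 ± 4.12) stood together, followed by Tgfa (5.43 ± 3.66) and Erbb3 (2.97 ± 2.60). Ereg (1.30 ± 1.17), Erbb4 (1.29 ± 2.11) and Btc (0.0379 ± 0.0656) were again last, and Egfr against Tgfa was the only step above the larger SD. In GFPneg replicates 2 and 3 alone, Nrg1 averaged 22.7, Egfr 15.2, Erbb2 10.4 and Hbegf 10.1 CPM per kb, and Erbb4 0.0706.

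The genes with the pattern most like Erbb3 and Ereg, the members with the smallest p in each direction, were found over the 5 libraries other than GFPneg replicate 1. The measure was the root mean square difference of centred log2(CPM + 1). Genes compared had a mean of at least 5 CPM over all 6 libraries, 9512 for Erbb3 and 9513 for Ereg. With so many genes and only 5 values each, the order is a description with no test and is no evidence of shared control. Slc39a8 (0.05), Rpl22-ps1 (0.12) and Cep89 (0.15) were nearest to Erbb3, and Lamc3 (0.15), Gdpd2 (0.27) and Mir99ahg (0.29) to Ereg. In GFPneg replicate 1, where Ereg had 0 counts, Lamc3 was at 0, Gdpd2 at 42.6 and Mir99ahg at 292 CPM. Gdpd2 met the minimum only through that library, with 0, 0 and 0.986 CPM in GFPpos and 3.18 and 6.65 CPM in GFPneg replicates 2 and 3. Slc39a8 stood at 22.2, 18.3 and 7.11 CPM in GFPpos and at 9.70 and 8.38 CPM in GFPneg replicates 2 and 3. Among the members themselves, Erbb2 and Nrg1 were nearest (0.18).

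Of 91 genes tested on the 6 pathway lists, Bace2, Gpc1 and Sdc4 had an unadjusted edgeR p below 0.05 (3.30%, against 5.26% of all genes tested) and 0 passed after adjustment. Bace2 and Gpc1 were among the 20 (21.98%) that were higher in GFPpos cells of every pair, a share of 21.5% over all genes tested. Bace2, an aspartic protease related to the neuregulin-cleaving enzyme Bace1, stood at 50.9, 52.1 and 76.4 CPM in GFPpos and 0, 8.83 and 8.65 CPM in GFPneg replicates 1, 2 and 3. The groups did not overlap, although the 0 allows up to 9.84 CPM by counting error alone. The log2 fold change was 3.06 (SE 0.73, edgeR adjusted p = 0.285). It passed without GFPneg replicate 1 (2.79, adjusted p = 0.00631), with DESeq2 (3.04, adjusted p = 0.00161) and in 4 other of the 19 alternative fits. Of 11 genes for ligand release, 0 passed in the fit over 6 libraries (4 positive and 7 negative, median -0.16). The protease genes Adam8 (0.666 ± 0.570 against 4.36 ± 4.12 CPM), Adam10 (92.3 ± 12.8 against 44.0 ± 47.1 CPM) and Adam15 (48.5 ± 16.7 against 67.7 ± 18.1 CPM) had the next smallest p.

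Gpc1, a heparan sulfate proteoglycan of the cell surface, stood at 140.3, 236 and 134 CPM in GFPpos and 39.3, 60.01 and 49.7 CPM in GFPneg replicates 1, 2 and 3. All GFPpos values lay above all GFPneg values, with a log2 fold change of 1.75 (SE 0.45, edgeR adjusted p = 0.350). It passed in 1 of 19 alternatives, the replicate block without replicate 1 (adjusted p = 4.31e-05). The same 2 pairs without the block gave 0.144, the block over 3 pairs 0.237 and DESeq2 0.0758. Sdc4, another such proteoglycan, stood at 373, 374 and 309 CPM in GFPpos and 915, 516 and 673 CPM in GFPneg cells, again without overlap, as for 13.2% of the tested genes (log2 -0.99, SE 0.38, adjusted p = 0.792). Sdc1 (204 ± 105 against 107 ± 29.2 CPM) and Cd44, the hyaluronan receptor (198 ± 46.7 against 108 ± 76.2 CPM), did not pass. Of the 11 tested co-receptor and chaperone genes, 0 passed (9 positive and 2 negative, median 0.23), and Muc4 had 0 counts.

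None of 21 negative regulators passed (13 positive and 8 negative, median log2 fold change 0.08). Errfi1, a feedback inhibitor that binds the Egfr kinase, stood at 320.4, 255 and 403 CPM in GFPpos and 302, 573 and 866 CPM in GFPneg replicates 1, 2 and 3. It was 1.06-fold higher in pair 1 (95% exact interval 0.863 to 1.32) and lower in GFPpos cells of the other pairs, 2.25-fold in pair 2 (95% exact interval 2.16 to 2.34, counting error only) and 2.15-fold in pair 3 (2.09 to 2.22). The log2 fold change was -0.84 (SE 0.43, edgeR adjusted p = 1.00), and it passed in 1 of 19 alternatives, the replicate block without replicate 1 (-1.12, adjusted p = 0.0230). The same 2 pairs without the block gave an adjusted p of 0.457, and the block over 3 pairs 1.00. The endocytic adaptor gene Sh3kbp1 (53.1 ± 27.2 against 19.2 ± 11.5 CPM), the phosphatase gene Ptpn1 (88.4 ± 6.80 against 150.6 ± 89.5 CPM) and the Ras pathway inhibitor gene Spred1 (124 ± 20.4 against 187 ± 31.1 CPM) did not pass.

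None of the 31 adaptor and effector genes passed (22 positive and 9 negative, median log2 fold change 0.19). Those with the smallest p included the adaptor genes Grb7 (5.66 ± 2.18 against 1.06 ± 1.20 CPM) and Gab2 (15.9 ± 15.7 against 4.62 ± 4.20 CPM) and the kinase gene Braf (40.1 ± 8.71 against 60.8 ± 30.4 CPM). None of the 16 genes induced by ERK signalling passed (11 positive and 5 negative, median 0.14, close to the 0.15 of all genes). Among them, Dusp6, an ERK phosphatase, averaged 362 ± 136 against 267 ± 175 CPM and the transcription factor gene Etv5 75.1 ± 52.7 against 33.8 ± 24.0 CPM. Phlda1 averaged 266 ± 105 against 191 ± 66.2 CPM, and the feedback inhibitor gene Spry4 39.7 ± 15.2 against 21.8 ± 19.2 CPM. The smallest unadjusted p in this list was 0.133, for Etv5.

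**Figure D4:**
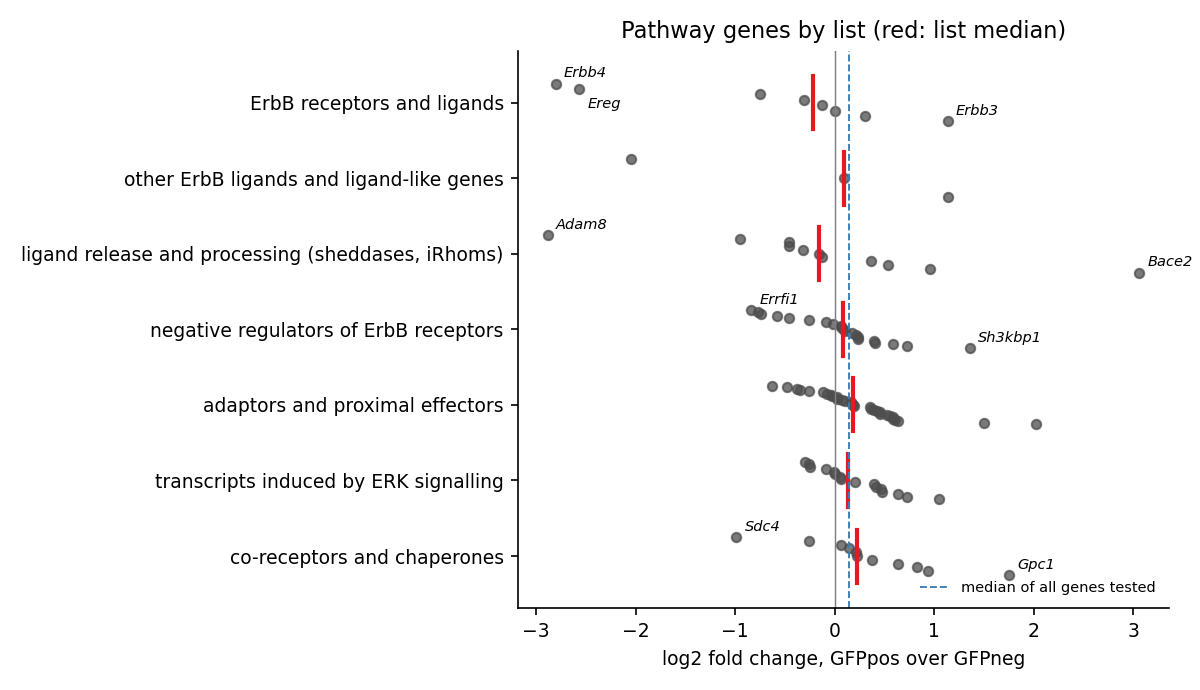
Log2 fold change (GFPpos over GFPneg, fit over 6 libraries) of the tested genes of the family and of 6 lists of pathway genes, 1 point per gene, with the list median in red and the median of all genes (0.15) dashed. List medians lie between -0.22 and 0.23, and Bace2 at 3.06 and Gpc1 at 1.75 stand to the right of their lists.

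The fold changes of the members moved with single libraries. Erbb2 (-1.17 to -0.35), Erbb3 (0.26 to 1.71) and Ereg kept their sign in all alternatives that tested them, while Egfr, Erbb4, Nrg1, Hbegf and Tgfa changed sign in at least 2 of 19. The plot of fold changes across settings shows both kinds.

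**Figure D5:**
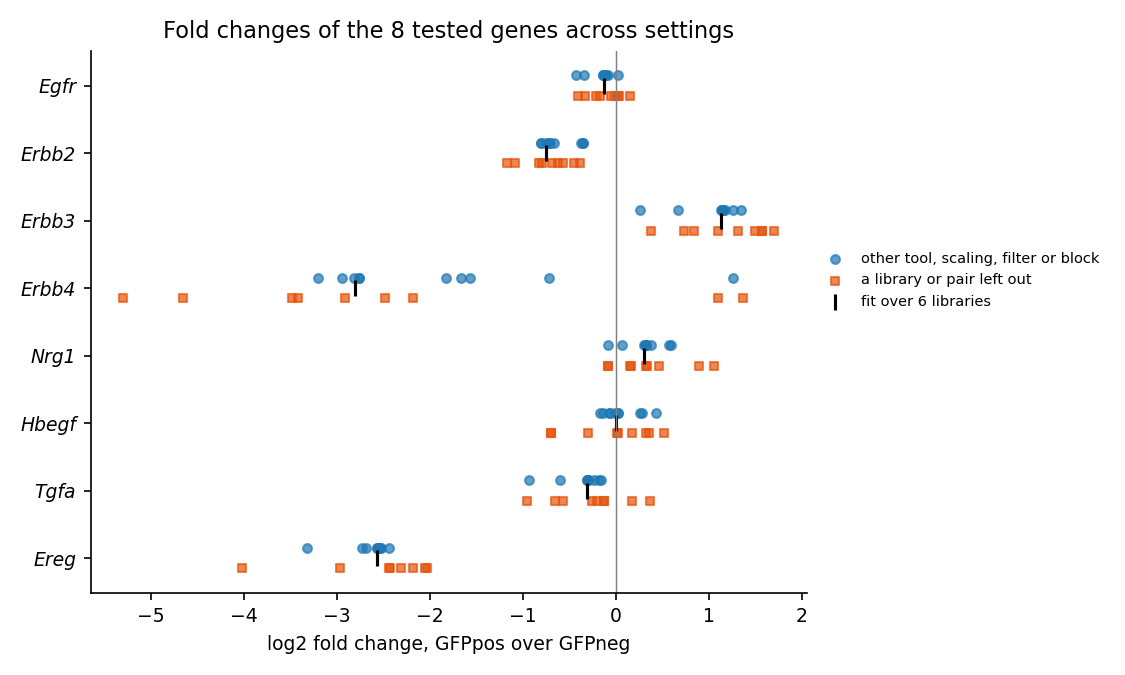
Log2 fold change of the 8 tested genes, GFPpos over GFPneg, in the fit over 6 libraries (black bar), with another tool, scaling, filter or block (blue circles) and with a library or pair left out (orange squares). Erbb2 and Ereg stay left of 0 and Erbb3 right of it, and Erbb4 spans -5.30 to 1.37.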

How the data were processed

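The files the authors deposited hold whole-number counts, 1 row per gene symbol, for each of 6 libraries. The submitters' processing notes name mm10 and the tools FastQC, cutadapt, TopHat2 and HTSeq. Tool versions and the strand setting were not given in the sources used here. Reads of overlapping genes are therefore uncertain (Gm26578 shares 482 exon bases with Nrg1 on the opposite strand and has 135 counts in all). The 5 summary rows entered neither library sizes nor tests, and reads in no feature made up 66.4% for GFPneg replicate 1 against 28.8% to 40.5% elsewhere. Positions, lengths and transcripts came from GENCODE M21 on the same assembly.

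The test was edgeR's quasi-likelihood F test (edgeR 4.0.16, R 4.3.3) with group as the only term, TMM scaling and the filterByExpr filter, over 13873 genes. Benjamini-Hochberg adjustment covered all of them, with a threshold of 0.05. SEs are the unshrunk coefficient over the square root of F. Alternatives used DESeq2 1.42.0, limma 3.58.1 (voom), other scaling and filters, the replicate block, and fits with libraries or pairs left out. The study's design puts both fractions of a replicate in the same pool, so the number pairs the samples. The deviations of paired libraries from their group means correlated at -0.036, 0.122 and -0.0013. Exact intervals of pair ratios cover counting error only, with the TMM factors taken as fixed, and p-values reflect the spread between pools. The members, gene lists, naming rule and settings were chosen with earlier results of these data known. Named genes were the 9 members, the other ligands, and of each list those called and the 4 with the smallest p, of which 1 is not reported here.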

Additional observations from a re-analysis of the deposited data

How the results depend on the processing

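All 151 values of the members under 19 alternatives stayed short of the threshold. Over all genes, 8 were higher and 1 lower with the 6 libraries, 43 and 18 with the replicate block, 386 and 216 with the replicate block without replicate 1 (2 pairs), 65 and 236 with no low-count filter, 5 higher with library size only, 50 and 48 with DESeq2, 91 and 61 with DESeq2 and the replicate block, and 54 and 24 with limma-voom. Leaving out libraries or pairs gave 2 to 63 higher and 1 to 68 lower (63 and 29 where GFPneg replicate 1 was dropped, 42 and 9 for both replicate 1 libraries, 2 and 1 for GFPpos replicate 3, 3 and 3 for GFPneg replicate 2, 8 and 11 for GFPneg replicate 3, 5 and 1 for GFPpos replicate 1, 7 and 4 for GFPpos replicate 2, 8 and 17 for both replicate 2 libraries, 12 and 68 for both replicate 3 libraries). No member was called in any of them, and the replicate block over 3 pairs changed no call of a gene named in the text.

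Signs turned as follows, and the cause was not tested. With library size only Egfr was at 0.020. With the replicate block without replicate 1, Erbb4 was at 1.26, Nrg1 at -0.083, Phlda1 at -0.10 and Dusp6 at -0.22. Hbegf (0.00) was at -0.0045 with a stricter filter, -0.065 with DESeq2 size factors in edgeR, -0.074 with DESeq2, -0.17 with DESeq2 and the block, and -0.14 with the replicate block. With limma-voom Nrg2 was at -0.10 and Dusp6 at -0.034. Over the fits that left out libraries or pairs the log2 value ranged from -0.41 to 0.15 for Egfr, -5.30 to 1.37 for Erbb4, -0.087 to 1.06 for Nrg1, -0.69 to 0.52 for Hbegf, -0.95 to 0.37 for Tgfa, -1.42 to 9.45 for Areg, -0.23 to 0.59 for Nrg2, -0.82 to 0.010 for Adam15, -0.061 to 0.96 for Phlda1 and -0.12 to 0.86 for Dusp6. The Areg value of 9.45, and 9.06 without GFPneg replicate 2, come from fits in which both remaining GFPneg libraries had 0 counts of it, and are not estimates. Per coding length the Egfr share of receptors was 62.7% in GFPpos and 58.9% in GFPneg cells, and in GFPpos cells the Erbb2 share was 18.8% and the Erbb3 share 17.8%. The Tgfa share of ligands in GFPpos cells was then 21.5%, against 7.92% per exon length. Erbb4, Ereg and Btc lay near the floor, and in GFPneg replicate 1 a count of 0 allows a level of up to 9.84 CPM by counting error alone.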
